A study of Sus scrofa with 11 samples.

Results

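The genes described here are receptors and ligands of the EGF, FGF, PDGF and HGF growth factor systems, read in the M. semimembranosus, a ham muscle, of Duroc gilts. The 9 genes listed were EGFR, ERBB2, ERBB3, FGF2, FGFR1, PDGFRA, PDGFRB, MET and HGF, and a probe set was taken where the platform annotation gives 1 of these symbols alone. That gave 4 genes, EGFR, FGF2, FGFR1 and PDGFRB, of 6765 genes with such a probe set. Each was read by a brighter and a dimmer probe set, which makes 8 of 23999 probe sets tested. ERBB2, ERBB3, PDGFRA and HGF had no probe set under their symbol in the annotation used, 1 probe set that carries several gene entries for MET was left out, and these 5 genes were not analysed here. The set was chosen on the lower level of EGFR in LP muscle in earlier results of the same pigs, so the EGFR values are given as a description, with no test, and the question is whether the other receptors were lower too.

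In all, 11 purebred Duroc gilts aged about 10 weeks at the start were fed for 63 days, 6 on a high protein diet (HP, 217 g/kg crude protein and 13.0 g/kg lysine) and 5 on a low protein diet (LP, 128 g/kg and 7 g/kg). Both diets were fed freely and had the same energy density (14 MJ/kg), with the protein lowered by raising wheat against soyabean meal. Each pig's RNA went to a separate Affymetrix Porcine Genome array, pigs are the replicates, and how many arrays there were sets the precision. The gilts had been blocked on initial weight and were kept in 2 pens, but which pig belonged to which block, pen or slaughter date was not known here, so these cannot be told apart from diet.

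Growth factor receptors of this kind are tyrosine kinases that span the cell membrane. A ligand outside the cell pairs the receptors, which then phosphorylate each other and call up adaptor proteins, and the signal runs on through Ras and the ERK kinases or through PI3 kinase to growth, division and survival. In skeletal muscle FGF2 and HGF are known for driving satellite cells, the muscle stem cells, to divide, PDGFRA marks the fibro-adipogenic cells between the fibres, and PDGFRB marks the pericytes around small vessels.

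Levels are on the log2 scale, 1 per probe set and pig, as the authors deposited them, so a difference of 1 is a doubling. All 11 arrays share the same median of 6.72, and the highest of the 23 negative control probe sets lay between 1.96 and 3.58 on the different arrays. A probe set is called above background on an array where it exceeds that array's highest negative control. LP minus HP was fitted in limma across all 23999 probe sets (two-sided), with the study's threshold of an unadjusted p of 0.05 or less, and 5.11% of all probe sets passed it, 2.97% as lower in LP and 2.15% as higher. None passed a Benjamini-Hochberg adjusted p of 0.05 (smallest adjusted p = 0.644). The median difference over all probe sets was -0.02. The 7 muscle fibre genes measured lay above background on all 11 arrays.

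EGFR, the receptor of epidermal growth factor, had a lower mean in LP on both of its probe sets. The brighter one read 10.55 at the lowest, 10.75 at the median and 11.06 at the highest in the 6 HP pigs. In the 5 LP pigs it read 10.13, 10.53, 10.43, 10.33 and 10.27. Every LP pig lay below every HP pig, although the highest LP level and the lowest HP level were only 0.02 apart. Such a separation was met by 0.329% of all probe sets, and nothing is read from this since EGFR was chosen for its difference. The means were 10.76 ± 0.17 (SD, n = 6) in HP and 10.34 ± 0.16 (SD, n = 5) in LP, a log2 difference of -0.42 ± 0.12 (SE) or 1.34-fold.

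The dimmer EGFR probe set ranged from 9.51 to 10.48 in HP, with a median of 10.02. In LP it read 9.39, 9.63, 9.69, 9.58 and 9.54. Here the groups overlapped, since HP replicates 2 and 6 (9.53 and 9.51) lay among the LP pigs, while the other 4 HP pigs lay above all of them. The spread was wider in HP (SD 0.39) than in LP (SD 0.11), and the log2 difference was -0.40 ± 0.19 (SE), close to that of the brighter probe set. Both probe sets were above background on every array. They read the same RNA samples, so the second is no independent repeat of the first.

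**Figure D1:**
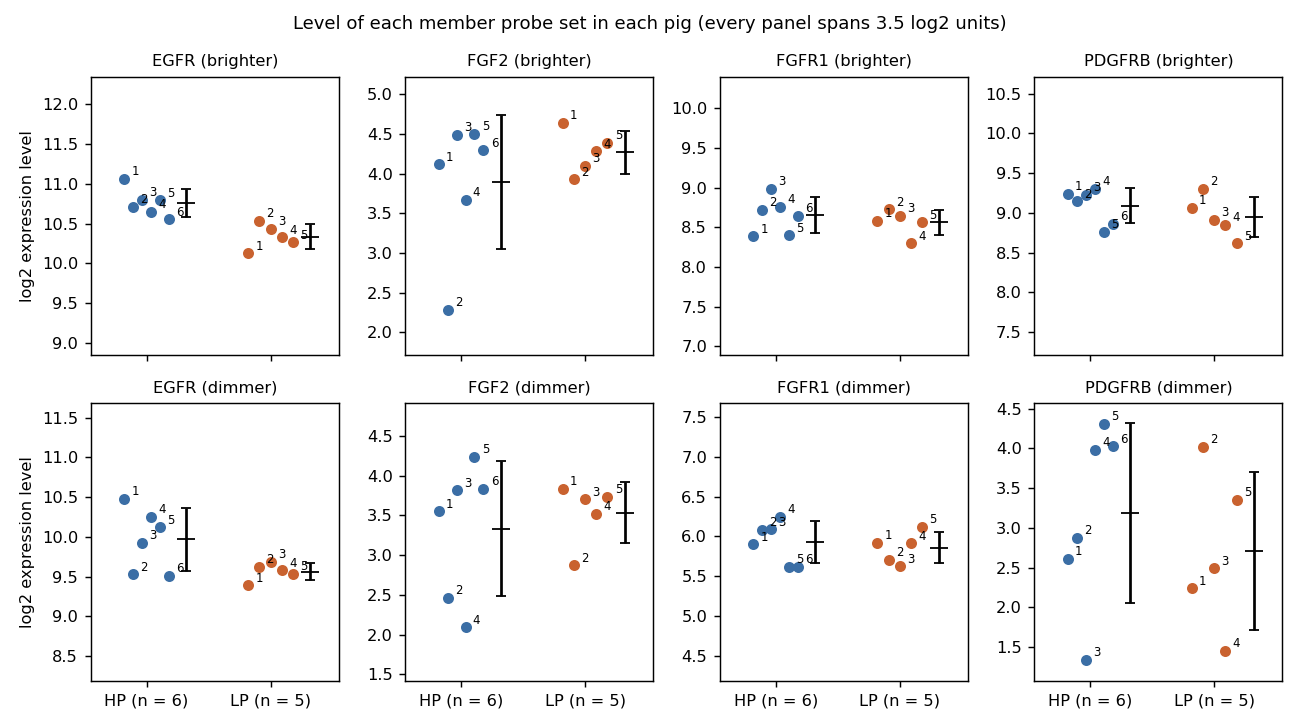
The log2 expression level of each of the 8 probe sets (y axis) in each HP pig (blue, n = 6) and LP pig (orange, n = 5), numbered by replicate, with the mean and SD in black and every panel spanning the same range. The LP pigs sit below the HP pigs for the brighter EGFR probe set (10.13 to 10.53 against 10.55 to 11.06), and the groups overlap in the other 7 panels.

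Of the 6 probe sets of the other 3 genes, none passed the threshold in limma in either direction, beside 2.97% (lower) and 2.15% (higher) of all probe sets, and none had an exact permutation p of 0.05 or less. With 6 probe sets a count of 0 is near that limma background, and no such share is given for the exact test.

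FGFR1, a receptor for FGF2 and other fibroblast growth factors, differed little between the diets. Its brighter probe set ranged from 8.39 to 8.98 in HP (median 8.69) and read 8.58, 8.72, 8.64, 8.30 and 8.56 in LP. The LP pigs lay within the HP range apart from LP replicate 4, the lowest of all 11. The means were 8.65 ± 0.23 (SD, n = 6) and 8.56 ± 0.16 (SD, n = 5), a log2 difference of -0.09 with a 95% interval from -0.39 to 0.22 (limma p = 0.544, exact permutation p = 0.509). This interval allows a level in LP up to 1.31-fold lower or 1.16-fold higher.

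The dimmer FGFR1 probe set lay between 5.62 and 6.25 in HP (median 5.99) and at 5.92, 5.71, 5.63, 5.91 and 6.12 in LP. All LP pigs fell inside the HP range. The log2 difference was -0.07 with a 95% interval from -0.41 to 0.27 (limma p = 0.663, exact permutation p = 0.615). Both FGFR1 probe sets were above background on every array.

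PDGFRB, a receptor for platelet-derived growth factor B and D chains, differed between the diets by less than its spread. Its brighter probe set ranged from 8.76 to 9.30 in HP with a median of 9.19. In LP it read 9.06, 9.30, 8.91, 8.85 and 8.62. Of the LP pigs, 4 lay below the HP mean, but LP replicate 2 was level with the highest HP pig. The means were 9.09 ± 0.22 (SD, n = 6) and 8.95 ± 0.25 (SD, n = 5), a log2 difference of -0.14 with a 95% interval from -0.48 to 0.20 (limma p = 0.381, exact permutation p = 0.342). Leaving out the 3 HP pigs whose arrays had the highest 99th percentile (replicates 1, 2 and 4), a step added once the values were known, took it to -0.0021. A fall in PDGFRB as large as that measured for EGFR therefore lies within its interval, as does a rise of 1.15-fold.

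The dimmer PDGFRB probe set was near the background and carries little information on the diets. It exceeded the negative controls in 5 of 6 HP pigs and 2 of 5 LP pigs, and its levels ran from 1.34 to 4.31 in HP and from 1.45 to 4.02 in LP. The log2 difference of -0.48 had a 95% interval from -1.80 to 0.84 (limma p = 0.440, exact permutation p = 0.470). Which pigs read high on it did not follow the brighter probe set (Pearson r = -0.19 over the 11 arrays with the diet means taken out). Within the diets r was -0.60 in HP and 0.32 in LP.

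FGF2, basic fibroblast growth factor and the ligand in the set, was read at low levels that did not pass in either direction. Its brighter probe set had a lowest level of 2.29, a median of 4.20 and a highest of 4.50 in HP. In LP it read 4.64, 3.93, 4.10, 4.28 and 4.38. All 5 LP pigs lay above the HP mean, but that mean was pulled down by HP replicate 2, and the medians of the diets differed by 0.08 only. The means were 3.89 ± 0.84 (SD, n = 6) and 4.27 ± 0.27 (SD, n = 5), a log2 difference of 0.37 with a 95% interval from -0.44 to 1.19 (limma p = 0.336, exact permutation p = 0.463). Without HP replicate 2 the difference was 0.05.

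The dimmer FGF2 probe set, which the annotation gives under the same transcript accession, ranged from 2.09 to 4.24 in HP (median 3.68). It read 3.83, 2.87, 3.70, 3.52 and 3.73 in LP. The log2 difference was 0.20, with a 95% interval from -0.65 to 1.05 (limma p = 0.615, exact permutation p = 0.658). HP replicates 2 and 4 gave its lowest levels, at 2.47 and 2.09, and lay below background there, as HP replicate 2 did on the brighter probe set. All 5 LP pigs were above background on both.

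**Figure D2:**
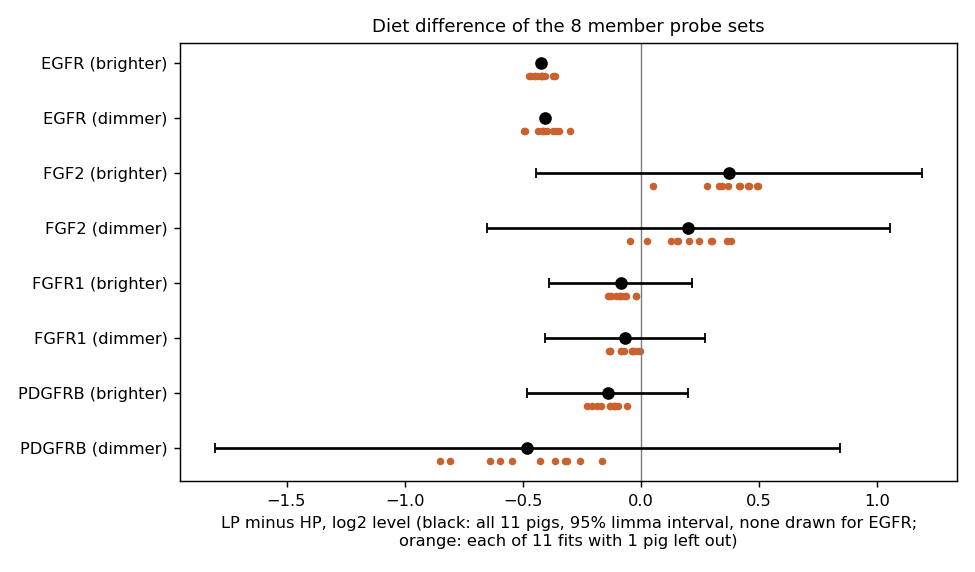
LP minus HP on the log2 scale (x axis) for the 8 probe sets (y axis), with black points for all 11 pigs, black bars for the 95% limma interval of the 6 tested probe sets, and orange points for the 11 fits with 1 pig left out each. For the brighter probe sets the orange points run from -0.47 to -0.37 (EGFR), -0.14 to -0.02 (FGFR1), -0.23 to -0.06 (PDGFRB) and 0.05 to 0.50 (FGF2). All 6 intervals drawn span 0, and none is drawn for EGFR.

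Set side by side, the brighter probe sets gave -0.42 for EGFR, -0.09 for FGFR1, -0.14 for PDGFRB and 0.37 for FGF2 on the log2 scale. Among receptors other than EGFR, the lower end of the 95% interval was -0.39 and -0.41 for the FGFR1 probe sets and -0.48 for the brighter PDGFRB probe set. Whether the EGFR difference exceeds theirs was not tested, because EGFR was chosen for its size. In bulk muscle, fewer cells of a type and less RNA per cell cannot be told apart.

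Taken over all 8 probe sets, the 4 genes did not vary closely together in these pigs, which was described and not tested. With the diet means taken out, the correlation over the 11 arrays between probe sets of different genes ran from -0.61 to 0.46 over 24 pairs. The median was -0.09, and 8 pairs were above 0. These pairs include the FGF2 probe sets and the dimmer PDGFRB probe set, which fell below background on some arrays. The 2 probe sets of EGFR (r = 0.68, with 0.71 in HP and 0.89 in LP) and of FGF2 (0.76, with 0.76 and 0.79) followed each other. Those of FGFR1 gave r = 0.30, but 0.62 within HP and -0.45 within LP. Those of PDGFRB gave -0.19, but -0.60 within HP and 0.32 within LP. The brighter EGFR and FGFR1 probe sets also changed sign between the diets (-0.45 in HP and 0.38 in LP). So did the dimmer FGFR1 with the brighter PDGFRB probe set (0.91 and -0.66), so a pooled r need not hold within either diet. The highest pair between genes was that of the brighter FGFR1 and PDGFRB probe sets (r = 0.46, with 0.45 in HP and 0.50 in LP). Among probe sets above background on every array, the brighter PDGFRB gave r = 0.36 and 0.26 with EGFR, and 0.46 and 0.27 with FGFR1, brighter probe set first. EGFR with FGFR1 ran from -0.33 to 0.06, with -0.17 for the brighter probe sets. These correlations are descriptions over pigs that share diets, pens and a common scaling.

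**Figure D3:**
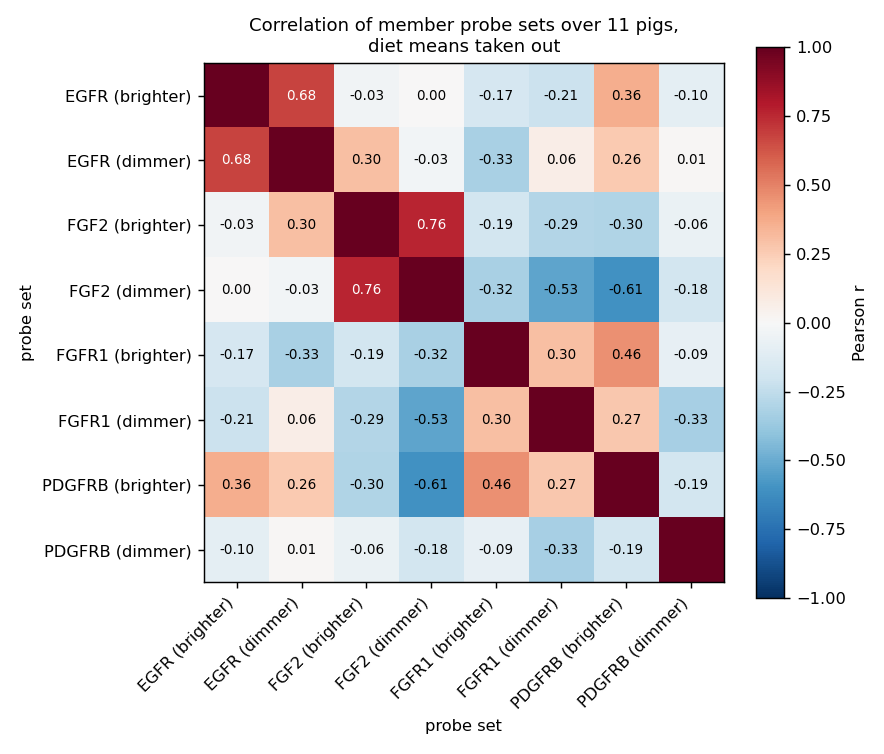
Pearson correlation between each pair of the 8 probe sets over the 11 pigs, with the mean of each diet taken out, from blue (-1) through white (0) to red (1), and both axes listing the probe sets. The pairs of EGFR (0.68) and of FGF2 (0.76) stand out, and the pairs between genes lie between -0.61 and 0.46.

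The mean of 27 hybridisation spike-in probe sets, bacterial and phage transcripts added to every array, was 11.30 to 12.22 in HP and 11.43 to 11.77 in LP (difference -0.26, exact permutation p = 0.186). With the diet means taken out, its correlation with the level over the 11 arrays was 0.15 and 0.35 for the EGFR probe sets, -0.60 and -0.61 for FGF2, -0.44 and 0.37 for FGFR1, and 0.08 and 0.17 for PDGFRB, brighter probe set first. The low FGF2 readings of HP replicates 2 and 4 thus came from arrays with bright spike-ins (12.19 and 12.22), and their part in the FGF2 values was not tested. The actin control level at the 3' end minus that at the 5' end, a guide to RNA integrity, was 5.38 to 6.46 in HP. In LP it was 5.12 to 5.93 (difference -0.43, exact permutation p = 0.123). HP replicates 2 and 4 both read 6.46. The part of RNA integrity in the receptor values was not tested.

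Over 7861 probe sets with 1 symbol that were above background on every array, the pig-to-pig pattern most like that of the brighter EGFR probe set was that of ARID4B, a chromatin protein (r = 0.94 over the 11 arrays with the diet means taken out). CRIM1, a membrane protein that binds growth factors of the BMP class, followed with r = 0.91, FBXO11, an F-box protein of ubiquitin ligases, with 0.86, GID8 with 0.85 and LOC102161741 with 0.83. LP minus HP on the log2 scale was 0.05 ± 0.17 (SE) for ARID4B, -0.15 ± 0.18 for CRIM1 and -0.08 ± 0.16 for FBXO11. GID8 differed by 0.26 ± 0.13 (SE) and LOC102161741 by -0.32 ± 0.13 (SE), so the differences pointed in both directions. The largest was that of LOC102161741, and no p is given for it here. These genes were picked as the highest of 7861 correlations over 11 arrays. Whether such values of r exceed those met by chance among so many was not tested.

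Other genes of the same pathways were taken from 8 lists by role, of which 51 genes of 145 listed had a probe set with 1 symbol. Each was read by its brightest probe set, and 38 of the 51 were above background on all arrays. None of the 51 passed the threshold in limma in either direction, against 2.97% lower and 2.15% higher over all probe sets. In the exact permutation test 1 had a p of 0.05 or less. The share of all probe sets that reach this in the exact test is not given here, so nothing is read from that count. Of the 51, 32 lay below 0, with a median of -0.09 beside -0.02 over all probe sets. Without the 3 HP arrays of the highest 99th percentile (the 3 brightest) 24 lay below 0 and the median was 0.01 beside 0.03 over all probe sets. The pathway median was then no longer below 0, though still the lower of the 2 medians.

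Among the ligands, 4 of the EGF family were measured and none passed, with a median of 0.13. EGF itself, the ligand that gives EGFR its name, read 11.71 ± 0.50 (SD, n = 6) in HP and 11.81 ± 0.49 (SD, n = 5) in LP (log2 difference 0.10 ± 0.29 (SE), exact permutation p = 0.721). The sign of this small difference changed with single pigs left out. HBEGF, a second EGFR ligand that is shed from the cell surface, read 5.69 ± 1.14 (SD, n = 6) in HP and 6.34 ± 0.62 (SD, n = 5) in LP (log2 difference 0.65 ± 0.53 (SE), exact permutation p = 0.299). Without HP replicate 2, at 3.66, the HBEGF difference was 0.24. Both lay above background on every array.

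Of 4 FGF ligands none passed, and their median of -0.60 rested on probe sets close to the background. FGF1, acidic fibroblast growth factor, was above background on 4 of 6 HP arrays and 1 of 5 LP arrays, with a log2 difference of -1.27 ± 0.63 (SE) (limma p = 0.0715, exact permutation p = 0.113). It passed as lower when HP replicate 5 (-1.53), LP replicate 3 (-1.52) or LP replicate 4 (-1.67) was dropped, with the mean of its probe sets (-0.97), and with the replicate number as a block (-1.35). With a floor at the 20th percentile of each array it differed by -0.44, and without the 3 brightest HP arrays by -0.74, and passed in neither. FGF9 was above background on 2 HP and 2 LP arrays (log2 difference -1.03 ± 0.57 (SE), limma p = 0.0987, exact permutation p = 0.128) and was called lower once HP replicate 5 (-1.30) or LP replicate 1 (-1.32) was dropped, while the floor took it to -0.37. FGF18, the FGF ligand above background on every array, differed by -0.17. No PDGF ligand had a probe set with 1 symbol.

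The list of HGF activation had 6 measured genes, the proteases HGFAC, ST14, HPN and PLAU and the protease inhibitors SPINT1 and SPINT2, and none passed (median -0.19). Of these PLAU (urokinase, which can cleave the HGF precursor) was above background throughout, with a difference of 0.01. ST14, matriptase, a protease that activates HGF, reached above background in 3 pigs of each diet, with a log2 difference of 0.56 ± 0.54 (SE) (exact permutation p = 0.396) that was 0.15 without HP replicate 1. SPINT1, an inhibitor of such proteases, exceeded background in 1 HP pig and in none on LP, and its fold is left out (exact permutation p = 0.284).

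The list of other receptor tyrosine kinases had 12 measured genes, among them PDGFRL, a PDGF receptor-like protein without a kinase domain. None passed, 9 lay below 0 (beside 52.6% of all probe sets) and the median was -0.09. The insulin receptor INSR differed by -0.14 ± 0.20 (SE), the IGF receptor IGF1R by -0.16 ± 0.20 (SE) on its brighter probe set, and the vascular receptors KDR and TEK by -0.16 and -0.06. The dimmer IGF1R probe set, singled out once its value was known, passed as lower in LP (log2 difference -0.73 ± 0.30 (SE), limma p = 0.0336, exact permutation p = 0.0303), with 6 of 6 HP and 4 of 5 LP arrays above background. TIE1, an orphan receptor of endothelium, stood at 7.00 ± 0.17 (SD, n = 6) in HP and 7.17 ± 0.29 (SD, n = 5) in LP (log2 difference 0.17 ± 0.15 (SE), exact permutation p = 0.271). FGFR2, a further FGF receptor, was above background on 2 HP arrays and 1 LP array (log2 difference 0.64 ± 0.64 (SE), exact permutation p = 0.387). Dropping HP replicate 1 made it pass as higher (1.13).

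Inside the cell, none of 11 adaptors and docking proteins passed (median -0.14). PLCG1, the phospholipase that receptor tyrosine kinases phosphorylate, read 9.49 ± 0.33 (SD, n = 6) in HP and 9.24 ± 0.04 (SD, n = 5) in LP (log2 difference -0.24 ± 0.16 (SE), exact permutation p = 0.165). The adaptor CRKL differed by -0.19 ± 0.15 (SE) (exact permutation p = 0.197), and by -0.07 after quantile normalization. GRB2, the adaptor that links receptors to Ras, differed by 0.04. Without the 3 brightest HP arrays the median of this list was 0.04 and so changed sign.

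Of 6 genes of receptor feedback and turnover, none passed (median 0.03). LRIG1, which promotes the breakdown of EGFR, differed by less than 0.01, while CBLB, a ubiquitin ligase of receptors, differed by -0.10 ± 0.12 (SE) (exact permutation p = 0.338) and SOCS4 by -0.10 ± 0.12 (SE) (exact permutation p = 0.333). ADAM17, the protease that sheds EGFR ligands, differed by 0.05.

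Of 8 genes from Ras to ERK none passed in limma (median 0.05). MRAS, a GTPase of the Ras family, ranged from 8.06 to 8.59 in HP (median 8.16) and from 8.32 to 8.56 in LP (median 8.47). The log2 difference was 0.24 ± 0.12 (SE) (limma p = 0.0790, exact permutation p = 0.0433), so it passed the exact test alone. It was the 1 of 51 pathway genes that did. HP replicate 2 gave the 8.59, and without it MRAS passed in limma (0.31). RPS6KA3, a kinase downstream of ERK, differed by 0.25 ± 0.15 (SE) (exact permutation p = 0.102). DUSP6, a phosphatase that ERK signalling induces, differed by 0.11 and ETV5, a transcription factor that FGF signalling induces, by 0.31 ± 0.32 (SE), and ETV5 passed without LP replicate 5 (0.60).

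Markers of the cell types that carry these receptors were read beside them, and 2 of 50 marker genes passed as lower in LP and none as higher, against the 2.97% and 2.15% over all probe sets. RGS5, a regulator of G protein signalling that marks pericytes as PDGFRB does, was lower, at 10.14 ± 0.18 (SD, n = 5) in LP against 10.58 ± 0.21 (SD, n = 6) in HP (log2 difference -0.44 ± 0.14 (SE), limma p = 0.00804, exact permutation p = 0.00866). Without the same 3 HP arrays it did not pass (-0.37). RGS5 was the 1 of 5 measured pericyte and smooth muscle genes past the threshold, and its Benjamini-Hochberg adjusted p in limma was 0.892. ACTA2 and MCAM differed by -0.16 and -0.14, TAGLN and CNN1 by 0.01 and 0.12, and the list median was -0.14. The summed level of the list on the log2 scale ran from 11.88 to 12.51 in HP and 11.79 to 12.06 in LP. Without the 3 brightest HP arrays that median was 0.06. KRT18, an epithelial keratin, also passed (log2 difference -1.12 ± 0.45 (SE), exact permutation p = 0.0519), with 5 HP arrays and 1 LP array above background.

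None of 9 fibroblast and fibro-adipogenic genes passed, 8 lay below 0 (beside 52.6% of all probe sets) and the median was -0.27. Their summed level was 13.81 to 14.36 in HP and 13.88 to 14.06 in LP. DCN, the matrix proteoglycan decorin, came nearest, at -0.28 ± 0.13 (SE) (limma p = 0.0525, exact permutation p = 0.0346). The 7 muscle fibre genes had a median of -0.25 that went to 0.00 after quantile normalization, and none passed. None of 8 endothelial, 5 adipocyte, 4 satellite cell, 4 macrophage and 3 Schwann cell and nerve genes passed (medians -0.08, 0.01, -0.12, -0.31 and -0.03). The epithelial list, 1 of whose 5 genes was above background on every array, had a median of 0.44, and its KRT19 was above background on none. The part of any of these cells in the EGFR or PDGFRB values was not tested.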

How the data were processed

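Total RNA of M. semimembranosus from 11 pigs was amplified, labelled with biotin and measured with 1 Affymetrix array for each pig. The authors deposited a log2 expression level for every probe set, from work in R 2.6 and Bioconductor 2.1 with the puma package. How background and normalisation were handled is not given in the sources used here. The levels were used unchanged. Of 24123 probe sets 124 controls were left out. Gene symbols came from the platform annotation (1 symbol for 10069 probe sets, several for 198 and none for 13732). Groups follow the diet that each label names.

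LP minus HP was fitted in R 4.3.3 with limma 3.58.1 (lmFit and eBayes, constant prior, no covariates), since puma needs probe-level uncertainty that the levels do not carry. The fit was tested on simulated data. Single probe sets were also tested by a two-sided exact permutation test (462 ways to divide the pigs). No array pair was identical. The members and lists were chosen with earlier results of these data known. Besides the members, the genes named are those past the threshold in each pathway list or, where fewer than 2 passed, the 2 with the smallest p, the 5 most like EGFR, and further list genes picked for their role after their values were seen. The marker genes RGS5, KRT18 and DCN were named after their values were seen too. The alternatives were quantile normalization, centring on the 75th percentile, leaving out probe sets below the median mean, a floor at the 20th percentile, array weights, a trended and robust prior, each array left out in turn, a block for the replicate number, the exact test, and the mean of a gene's probe sets. No sequences or coordinates were used.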

Additional observations from a re-analysis of the deposited data

Results flagged for a closer look

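Single pigs far from the others of their diet were searched for with Dixon's test in 44 groups of pigs, and 3 stood out. Chance flags about 1 in 20 groups. On the brighter FGF2 probe set HP replicate 2 read 2.29, below the other HP pigs at 3.67 to 4.50. ST14 read 0.56 in HP replicate 1, below the others at 2.66 to 3.68, all near the background. MRAS read 8.59 in HP replicate 2, above the others at 8.06 to 8.17.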

How the results depend on the processing

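Under the alternatives that kept them in the fit, none of the 6 probe sets of FGF2, FGFR1 and PDGFRB passed the threshold, and both EGFR probe sets stayed lower in LP. EGFR was chosen for its lower level, so nothing is read from its staying lower. On its brighter probe set every LP pig lay below every HP pig, so leaving out 1 pig could not change the sign. With 1 pig left out the brighter probe sets ran from -0.47 to -0.37 for EGFR, -0.14 to -0.02 for FGFR1, -0.23 to -0.06 for PDGFRB and 0.05 to 0.50 for FGF2. Leaving out dim probe sets removed both FGF2 probe sets, the dimmer FGFR1 and PDGFRB probe sets and some pathway genes. Of 51 pathway genes, 0 to 2 were called lower and 0 to 1 higher with 1 pig left out. Over all 23999 probe sets 569 to 1003 were called lower in those fits, and 1066 to 1521 in either direction. When a gene's probe sets were averaged 1 pathway gene was called lower, beside 222 of all 6765 genes. With the 3 brightest HP arrays left out, chosen after the values were seen, 1 pathway gene was called higher. The signs then changed for both FGF2 probe sets (-0.16 and -0.43), the dimmer FGFR1 probe set (0.0827), ST14 (-0.0893), PLCG1 (0.0378) and CRKL (0.0012). The brighter PDGFRB probe set went to -0.0021 and the dimmer EGFR probe set to -0.29. Array weights turned the dimmer FGF2 probe set (-0.03) and EGF (-0.003), and the floor at the 20th percentile SPINT1 (0.0247) and FGFR2 (-0.16). With single pigs left out, the dimmer FGF2 probe set ran from -0.0475 to 0.38 and EGF from -0.065 to 0.23. Over all probe sets 1227 were called, against 1884 without the 3 brightest HP arrays and 710 of 12000 with dim ones left out. The causes were not tested.

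The labels number the pigs 1 to 6 and 1 to 5 within the diets and say nothing of pairs. Deviations of same-numbered pigs correlated at -0.07 to 0.08, and 1 of 5 LP pigs correlated best with its own number. With the replicate number as a block 1 pathway gene was called lower, beside 665 of all 23999 probe sets. The brighter probe sets then differed by -0.47 (EGFR), -0.09 (FGFR1), -0.19 (PDGFRB) and 0.45 (FGF2).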

Other observations

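Of 77 probe sets of the 51 pathway genes, 3 passed the threshold, all of them dimmer than another probe set of the same gene, beside 5.11% of all probe sets. That is 2 lower and 1 higher, beside 2.97% and 2.15%, so the count is no more than the background, and they were picked out once their values were known. A dimmer probe set of PTPN1, a phosphatase that acts on receptor tyrosine kinases, was lower in LP (log2 difference -0.98 ± 0.32 (SE), limma p = 0.0108, exact permutation p = 0.0152), while the brightest PTPN1 probe set, at 0.11, did not pass. It was above background on 6 of 6 HP arrays and 3 of 5 LP arrays. A dimmer TEK probe set was higher (0.76, exact permutation p = 0.0303) but lay above background on 1 HP and 2 LP arrays. The third was the dimmer IGF1R probe set described above, at -0.73 (exact permutation p = 0.0303).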
